A study of Homo sapiens with 6 samples.

Results

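Interferon-stimulated effector genes are the 39 genes described here, out of 50868 in the deposited table. They were chosen by name, as genes whose products carry out the antiviral response, and each symbol matched 1 row. When a cell meets type I or type III interferon, receptors on its surface activate JAK kinases, which phosphorylate STAT proteins. These join IRF9 in a complex that binds a short DNA element, the interferon-stimulated response element (ISRE), near the start sites of target genes. Many epithelial and cancer cells keep a basal level of these transcripts with no added interferon. The RNA sensors, the JAK, STAT and IRF genes and the interferons themselves are treated below only as the rest of the pathway.

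RNA was sequenced from KYSE-150, an established human oesophageal squamous carcinoma line, in 2 groups of 3 libraries. The control group is titled nc and called wild type in the series text, and the group titled si is described in the labels as ZNF514 knockout by siZNF514, and is called siZNF514 here. Both groups are the same line grown in RPMI 1640 with serum, and no interferon or virus is named for either. The sources used here do not say whether nc cells received a control siRNA, how long the treatment lasted, or whether the 3 libraries of a group were separate cultures. The p-values thus rest on the spread among these libraries alone, and that spread may be technical.

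The libraries held 12175259 to 14318909 counts, so that 1 count was worth 0.0701 to 0.0789 CPM (the count scaled by its library's normalised total). FPKM, used below to compare levels between genes, is the deposited value scaled by transcript length as well. ZNF514 itself had 239, 273 and 261 counts in nc and 64, 82 and 63 in siZNF514, 27.3% of the nc level on the CPM scale (exact two-sided permutation test p = 0.1, the smallest that 3 against 3 allow). Squamous and epithelial markers were abundant in every library, with summed levels over 8 genes of 1640 to 1830 CPM in nc and 1220 to 1590 CPM in siZNF514, without overlap. Of the 7 that could be tested, the keratins KRT6A (-2.16), KRT14 (-1.23) and KRT5 (-0.52) were lower on the log2 scale, EPCAM was higher (0.41) and 3 did not pass, while SOX2 had 5 counts in nc and 3 in siZNF514. The part of these shifts in the results below was not tested. Of 4 genes listed for plasmacytoid dendritic cells, which summed to 2.88 to 4.11 CPM in nc and 2.07 to 5.34 CPM in siZNF514, CLEC4C and LILRA4 had no count in any library, GZMB had 7 counts in nc and 8 in siZNF514, and TCF4, with 133 and 128 counts, gave most of the sum. The endothelial markers, 3 genes, summed to 3.11, 3.16 and 3.31 CPM in nc and 1.88, 2.22 and 2.27 CPM in siZNF514, without overlap. In leukocyte and fibroblast markers siZNF514 replicate 3 stood apart. There, 6 leukocyte genes summed to 5.35 CPM, against 0.392 and 0.46 CPM in the other siZNF514 libraries and 2.24 to 3.55 CPM in nc, where ITGAM gave most of the counts (28, 21 and 28, against 5 in each siZNF514 library). In the same library 4 fibroblast genes summed to 33.7 CPM, against 15.5 and 13.7 CPM and 10.8 to 12.2 CPM. COL1A1 gave most of these counts in every library (149, 141 and 121 in nc, 197, 178 and 312 in siZNF514), and was higher in siZNF514 (0.75). PDGFRB went the other way (3, 7 and 18 in nc, 0, 1 and 3 in siZNF514). The fibroblast collagen gene COL3A1 had 112 counts in siZNF514 replicate 3, none in the other siZNF514 libraries and 2 to 5 in nc. DCN had 33 counts in that library, none in the other siZNF514 libraries and 0, 3 and 0 in nc. The immunoglobulin gene IGKC (65 counts) and the mammary secretoglobin gene SCGB2A2 (112 counts), chosen after their values were seen, had none in any other library. Results on the effector genes are given below with and without that library where it matters. In such bulk samples, fewer cells of a type and less RNA per cell cannot be told apart.

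Because the ISRE is the element these genes are known for, matches to its core were read from RefSeq promoter windows on GRCh38.p14, which run from 250 bases before to 50 after a start site. The letters searched were GAAA, any 2 bases and GAAA again, on either strand (so also TTTC, any 2 bases and TTTC), and overlapping matches were counted separately. Windows were found for 34 of the 39 members. The following stretches, written 5′ to 3′ on the gene's strand with the matches in capitals, show the members that carry the results below: genes that fell (IFIT1, ISG15, IFI6, HERC5 and DTX3L), a membrane gene that rose (IFITM3), DDX60L, which did not pass although its relative DDX60 fell, and IFI27 and BST2, whose 3 siZNF514 libraries disagreed. Where a stretch lies in an exon of some transcript, at most 30 bases are given.
IFIT1 (chr10:89392495-89392541, plus strand): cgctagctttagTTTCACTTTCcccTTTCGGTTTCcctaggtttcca
ISG15 (chr1:1013372-1013411, plus strand): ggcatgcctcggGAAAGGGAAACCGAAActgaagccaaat
IFI6 (chr1:27672264-27672360, minus strand): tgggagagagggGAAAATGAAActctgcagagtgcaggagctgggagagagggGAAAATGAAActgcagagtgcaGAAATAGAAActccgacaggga
HERC5 (chr4:88456982-88457066, plus strand): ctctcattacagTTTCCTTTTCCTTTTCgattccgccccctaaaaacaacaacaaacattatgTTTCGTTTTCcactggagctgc
DDX60L (chr4:168480521-168480584, minus strand): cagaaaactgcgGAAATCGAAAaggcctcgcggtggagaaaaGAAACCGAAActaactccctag
DTX3L (chr3:122564320-122564349, plus strand): ctccagggaagcGAAACTGAAActttgcgc
IFITM3 (chr11:320885-320914, minus strand): agGAAAAGGAAActgttgaGAAACCGAAAc
IFI27 (chr14:94110616-94110662, plus strand): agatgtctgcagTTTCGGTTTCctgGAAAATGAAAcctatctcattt
BST2 (chr19:17405738-17405767, minus strand): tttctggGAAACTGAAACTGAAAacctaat
IFI6 and HERC5 each held 3 matches, and IFIT1, ISG15, DDX60L, IFITM3, IFI27 and BST2 held 2 each. In ISG15 and BST2 both matches overlap, as do the first 2 of HERC5. The single match of DTX3L lies at the same bases, 122564332 to 122564341 of chromosome 3, as the only match of its neighbour PARP9, which is read from the opposite strand.

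The comparison of siZNF514 with nc asked how these genes stood when ZNF514 was lowered. Most of the measured effector genes fell, among them the IFIT genes, IFI6, ISG15 and the PARP9 and DTX3L pair, while IFITM2, IFITM3 and SP100 rose. Counts were high enough to test 35 of the 39 members. In edgeR's quasi-likelihood test, with p-values adjusted by Benjamini-Hochberg over all 14250 tested genes and a threshold of 0.05, 22 were lower (62.9%), 3 were higher (8.57%) and 10 did not pass. Of all tested genes, 25.1% were lower and 25.5% higher by the same rule. A decrease of at least 2-fold that passed was seen in 7 members (IFI6, IFI44L, SAMD9L, TRIM22, IFIT3, IFIT2 and PARP14), against 7.21% of all tested genes. Of these, IFI44L, SAMD9L and TRIM22 met the filter on low counts only through nc, where they were higher. Their place in this count, and among the 22 lower, is thus partly given by the filter. Every siZNF514 value was under the lowest nc value in 24 of the 35 members, and over the highest in 3, against 30.3% and 30% of all tested genes. IFI44L, SAMD9L and TRIM22 are among the 24 as well. The median log2 fold change of the tested members was -0.66, against -0.01 over all tested genes, and single members ran from -2.61 to 1.00. The summed leukocyte markers were also higher in nc than in siZNF514 replicates 1 and 2 (values above), and their part in these counts was not tested. Since members were chosen with earlier results of these data known, these counts are a description. Per length, the members with the highest nc level were IFITM3, ISG15 and IFIT3 (196 ± 6.61, 77.8 ± 3.45 and 46.5 ± 0.756 FPKM, SD, n = 3), and the 4 untested members were the lowest. The 39 genes together took 0.244%, 0.253% and 0.264% of all counts in nc and 0.175%, 0.173% and 0.178% in siZNF514.

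**Figure D1:**
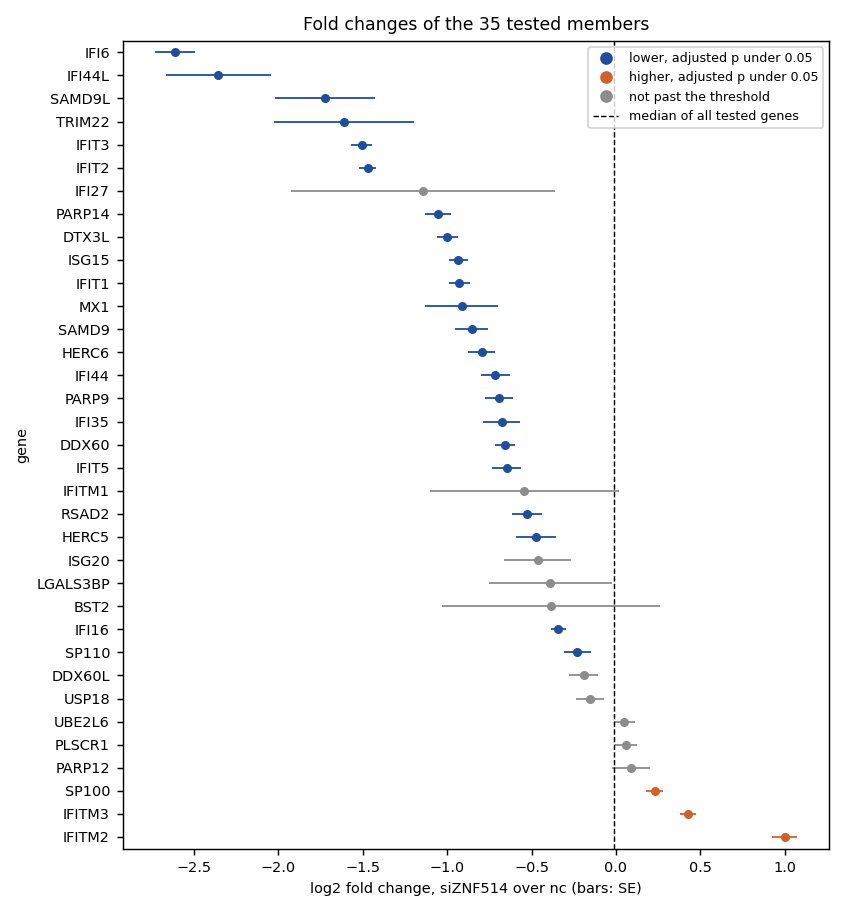
Log2 fold change of each tested member, siZNF514 over nc, with its standard error as a bar and the median of all tested genes as a dashed line. IFI6 lies farthest to the left at -2.61 and IFITM2 farthest to the right at 1.00, and the bars of IFI27, BST2 and IFITM1 are the widest.

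Most of these calls held without siZNF514 replicate 3. With it left out, 23 of 36 tested members were lower and 3 higher, against 21.9% and 22.7% of all tested genes, and 20 of the 22 members lower with all libraries were among them. The members that no longer passed were SP110 and TRIM22, and those that newly passed were BST2, IFI27 and MX2. With that library out, BST2, IFI27 and MX2 met the filter on low counts only through nc, where they were higher. Over 16 other settings of the analysis, 29 members were tested in every one, and 17 of these were always lower. The 17 were IFIT1, IFIT2, IFIT3, IFIT5, IFI6, MX1, ISG15, HERC6, RSAD2, DDX60, PARP9, DTX3L, PARP14, IFI16, IFI35, SAMD9 and IFI44. IFITM2 and IFITM3 were higher in every setting. The matching shares of all tested genes were not computed.

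**Figure D2:**
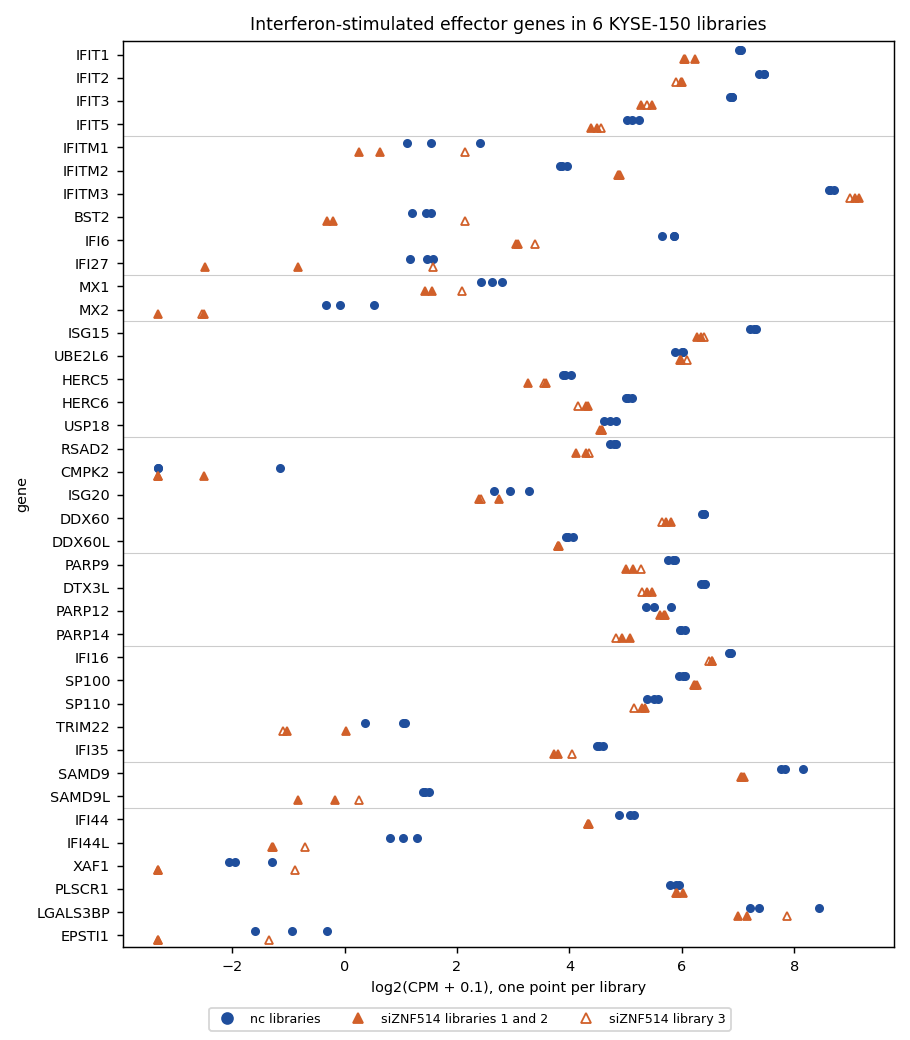
Normalised level of all 39 members on a log2(CPM + 0.1) axis, with 1 point per library, circles for nc and triangles for siZNF514, the open triangle being siZNF514 replicate 3. The circles and triangles are apart for the IFIT genes, and the open triangle stands to the right of the other triangles for IFI27, BST2, IFITM1, XAF1 and EPSTI1.

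The IFIT proteins bind viral RNA through tetratricopeptide repeats and keep it from being translated. Their 4 genes lie together on chromosome 10 between 89301955 and 89421001, and all 4 fell. IFIT2, which also promotes apoptosis, had 176, 177 and 166 CPM in nc and 64.3, 62.9 and 59.6 CPM in siZNF514 (log2 fold change -1.47, SE 0.05, adjusted p = 5.30e-06). IFIT3, whose protein stabilises IFIT1 in a shared complex, stood at 119, 116 and 118 CPM and 38.7, 44.4 and 41.3 CPM (log2 fold change -1.51, SE 0.06, adjusted p = 7.96e-06). In both genes the siZNF514 libraries were close to each other and far below every nc library. IFIT1, which recognises RNA with an incomplete cap, went from 129.9, 131 and 133 CPM to 74.9, 65.5 and 66.6 CPM (log2 fold change -0.93, SE 0.06, adjusted p = 3.96e-05). IFIT5, which binds RNA with a 5′ phosphate, went from 32.5, 34.5 and 37.4 CPM to 20.7, 22.5 and 23.4 CPM (log2 fold change -0.65, SE 0.09, adjusted p = 0.000782). Per length, IFIT3 was the highest of the 4, at 46.5 ± 0.756 FPKM in nc and 15 ± 0.975 FPKM in siZNF514. The within-library log2 ratio of IFIT2 to IFIT3 moved by 0.04, SE 0.08, with overlapping groups, whereas that of IFIT3 to IFIT5 moved by -0.86, SE 0.08 and that of IFIT1 to IFIT2 by 0.54, SE 0.06, both with groups apart. IFIT1, IFIT2 and IFIT3 overlap the locus of LIPA on the other strand, whose counts were 6111 in nc and 4145 in siZNF514, and without knowledge of strand use in counting, shared reads cannot be told apart.

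Of 6 membrane protein genes, 2 were higher, 1 was lower and 3 did not pass. These small counts are near the shares of all tested genes, 25.5% higher and 25.1% lower. IFITM proteins sit in the plasma and endosomal membranes and block fusion of enveloped viruses, and their genes lie between 307631 and 327537 of chromosome 11. IFITM3, on chromosome 11 at 319669 to 327537 in the RNA-seq table's annotation, had 391, 398 and 418 CPM in nc and 541, 570.2 and 510.5 CPM in siZNF514 (log2 fold change 0.43, SE 0.05, adjusted p = 0.000423). IFITM2 had 14.5, 14.2 and 15.4 CPM and 28.9, 29.2 and 29.9 CPM (log2 fold change 1.00, SE 0.08, adjusted p = 6.82e-05). All siZNF514 libraries were above all nc libraries for both. IFITM1 did not pass, with 36, 74 and 26 counts in nc and 14, 19 and 59 in siZNF514 (log2 fold change -0.54, SE 0.56, adjusted p = 0.449). Single libraries moved this value: it was -1.38 without siZNF514 replicate 3 (adjusted p = 0.0575), -0.21 without siZNF514 replicate 1, -0.29 without siZNF514 replicate 2 and -0.07 without nc replicate 2, and passed in none of these. Its locus lies inside that of IFITM2 on the same strand, and the 3 genes are close paralogs, so reads could be assigned to more than 1 of them and their values are uncertain.

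IFI6 (ENSG00000126709, chromosome 1, 27666061 to 27672218), a small protein of mitochondrial and endoplasmic reticulum membranes, had the largest fall of the tested members. Its levels were 49.8, 58 and 57.9 CPM in nc and 8.4, 8.2 and 10.4 CPM in siZNF514, 16.3% of the nc level (log2 fold change -2.61, SE 0.12, adjusted p = 1.04e-05). Its relative IFI27, also a mitochondrial protein, had 37, 38 and 27 counts in nc and 1, 6 and 39 in siZNF514 and did not pass (log2 fold change -1.14, SE 0.78, adjusted p = 0.26). BST2, or tetherin, which holds budding virions on the cell surface, showed the same layout, with 34, 40 and 28 counts and 9, 10 and 59 counts (log2 fold change -0.39, SE 0.64, adjusted p = 0.643). In both genes siZNF514 replicates 1 and 2 were below every nc library while replicate 3 lay within the nc range for IFI27 and above it for BST2. Without siZNF514 replicate 3, IFI27 passed at -3.19 (SE 0.52, adjusted p = 0.00465) and BST2 at -1.77 (SE 0.27, adjusted p = 0.00341). That is the library in which the summed leukocyte and fibroblast markers were highest, and the part of those other transcripts in the values of IFI27 and BST2 was not tested. IFI6 was also somewhat higher there, at 10.4 CPM, but remained below every nc library.

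**Figure D3:**
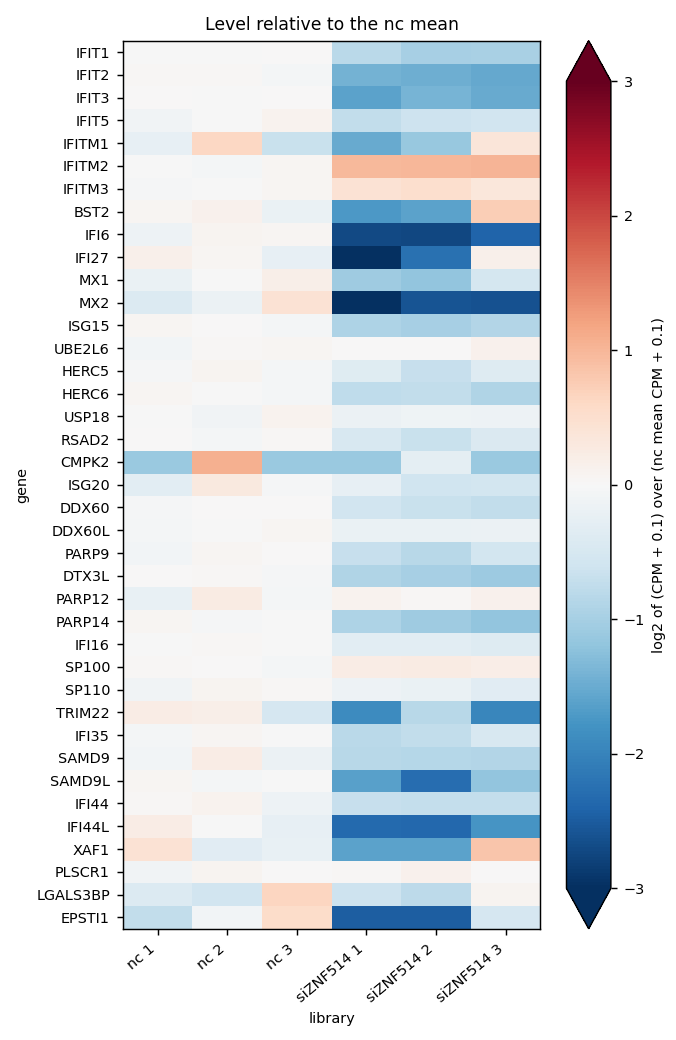
Level of each member in each library relative to its nc mean, as the log2 of (CPM + 0.1) over (nc mean CPM + 0.1), blue for lower and red for higher. The siZNF514 columns are blue for most genes, and in the column of siZNF514 replicate 3 IFITM1, BST2, IFI27 and XAF1 are red.

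MX1 and MX2 are dynamin-like GTPases that trap viral nucleocapsids, and are neighbours on chromosome 21 between 41361943 and 41459214. MX1 fell from 5.28, 6.03 and 6.86 CPM to 2.83, 2.61 and 4.18 CPM (log2 fold change -0.91, SE 0.22, adjusted p = 0.0109). It was low for a gene often used as a marker of interferon action, at 0.52 ± 0.0667 FPKM in nc. MX2 had 9, 12 and 17 counts in nc and 0, 1 and 1 in siZNF514, too few to pass the filter on low counts. The sums were 38 and 2 counts, so siZNF514 stood at 5.31% of nc, with an exact 95% binomial interval of 0.621% to 20.6%, which covers counting error only. When any 1 library other than nc replicate 2 was left out, the filter kept MX2 and it passed as lower. Without siZNF514 replicate 3 the value was -4.32 (SE 0.85). MX2 was kept there only through nc, the group where it was higher, so these calls add no separate support.

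ISG15 is a ubiquitin-like protein that is joined to other proteins by a chain of enzymes, of which UBE2L6 is the conjugating enzyme and HERC5 the main human ligase. USP18 removes ISG15 and also restrains the type I interferon receptor. Of these genes and HERC6, ISG15, HERC5 and HERC6 were lower. ISG15 fell, from 160.3, 155 and 148 CPM to 81, 77.3 and 84.2 CPM (log2 fold change -0.93, SE 0.05, adjusted p = 2.49e-05). Per length it was second to IFITM3 among the members, at 77.8 ± 3.45 FPKM in nc and 37.3 ± 1.59 FPKM in siZNF514. The HERC5 level was 15.1, 16.2 and 14.7 CPM in nc and 11.9, 9.51 and 11.7 CPM in siZNF514 (log2 fold change -0.47, SE 0.12, adjusted p = 0.0133). Its neighbour HERC6 fell as well, from 34.7, 32.8 and 31.9 CPM to 19.5, 19.9 and 17.7 CPM (log2 fold change -0.80, SE 0.08, adjusted p = 0.000234). In all 3 genes the siZNF514 libraries lay below every nc library. UBE2L6 was at 58.5, 63.7 and 64.4 CPM and 62.5, 62.9 and 67.8 CPM and did not pass (log2 fold change 0.05, SE 0.06, adjusted p = 0.535). USP18, at 26.2, 24.3 and 28.2 CPM and 23.1, 23.8 and 23.7 CPM, did not pass either (log2 fold change -0.15, SE 0.08, adjusted p = 0.153). Its groups did not overlap, with siZNF514 below nc as in 30.3% of all tested genes. It passed as lower with scaling by total counts alone (-0.28) and on all 3 log2 FPKM scales (-0.28 with 0.1 added). Under total counts alone the median of all tested genes also moved, to -0.14, and FPKM are scaled by library total too. These calls thus add no separate support. Within libraries the log2 ratio of ISG15 to USP18 moved by -0.78, SE 0.10, and that of ISG15 to HERC5 by -0.46, SE 0.09, with groups apart in both.

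Of 4 tested genes for enzymes that act on nucleotides and RNA, 2 fell and 2 did not pass, where 25.1% of all tested genes were lower. RSAD2 (viperin), which makes a chain-terminating nucleotide, fell from 27.6, 26.2 and 28.2 CPM to 19.5, 17.2 and 20.2 CPM (log2 fold change -0.53, SE 0.09, adjusted p = 0.00244). CMPK2, its neighbour on chromosome 2 and a mitochondrial nucleotide kinase, was nearly silent, with 5 counts in nc, all in replicate 2, and 1 in siZNF514. This put siZNF514 at 20.2% of nc, with an exact 95% binomial interval of 0.427% to 180%, so no difference was detectable at this depth. The helicase gene DDX60 fell from 81.6, 84.1 and 84.1 CPM to 55.7, 52.7 and 49.9 CPM (log2 fold change -0.66, SE 0.06, adjusted p = 0.000124). Its relative DDX60L was at 15.2, 15.7 and 16.6 CPM and 13.7, 13.9 and 14 CPM and did not pass (log2 fold change -0.19, SE 0.08, adjusted p = 0.1). The groups of DDX60L did not overlap, with siZNF514 below nc as in 30.3% of all tested genes. DDX60L passed as lower with total counts alone (-0.32) and on all 3 log2 FPKM scales (-0.29 with 0.1 added). DDX60L overlaps PALLD on the other strand, whose counts were 5332 in nc and 2348 in siZNF514. The ratio of DDX60 to DDX60L moved by -0.47, SE 0.06 on the log2 scale, with groups apart. ISG20, an exonuclease that degrades RNA, had 80, 137 and 96 counts in nc and 84, 67 and 72 in siZNF514 and did not pass (log2 fold change -0.46, SE 0.20, adjusted p = 0.089). It passed without nc replicate 1 (-0.60) and with total counts alone (-0.59). Under total counts alone the median of all tested genes also moved, to -0.14, and FPKM are scaled by library total too. The calls of DDX60L and ISG20 on those scales thus add no separate support.

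PARP9 and the ubiquitin ligase DTX3L form a complex, and their genes start next to each other on opposite strands of chromosome 3, sharing the ISRE match printed above. DTX3L fell from 83.5, 85.4 and 81.2 CPM in nc to 44.4, 41.6 and 39.1 CPM in siZNF514 (log2 fold change -0.9999, SE 0.06, adjusted p = 3.53e-05). PARP9 fell from 53.6, 58.9 and 57.6 CPM to 34.9, 32 and 38.5 CPM (log2 fold change -0.69, SE 0.08, adjusted p = 0.000483). The loci overlap at their starts, so some reads could belong to either gene. PARP14, an ADP-ribosyltransferase that lies nearby on the same chromosome, fell from 66.5, 62.3 and 63.2 CPM to 33.8, 30.4 and 28.3 CPM (log2 fold change -1.05, SE 0.08, adjusted p = 6.12e-05). PARP12, which can block translation, had 40.9, 56 and 45.5 CPM and 51.5, 48.6 and 51.7 CPM, and did not pass (log2 fold change 0.09, SE 0.11, adjusted p = 0.539). The log2 ratio of PARP12 to PARP14 moved by 1.16, SE 0.18, with groups apart.

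Of 5 members grouped as nuclear factors, 4 were lower and 1 higher, against 25.1% and 25.5% of all tested genes. IFI16, a sensor of DNA, fell from 114, 118 and 115 CPM to 93, 92.4 and 88.8 CPM (log2 fold change -0.34, SE 0.04, adjusted p = 0.000653). SP100, a component of nuclear bodies, rose from 66.4, 64.8 and 61.7 CPM to 75, 76.8 and 74.3 CPM (log2 fold change 0.23, SE 0.05, adjusted p = 0.00832), a call lost with total counts alone (0.10) and on all 3 log2 FPKM scales (0.10 with 0.1 added). SP110, its relative, was just past the threshold as lower, at 41.5, 47.3 and 45.5 CPM and 40.6, 38.9 and 35.2 CPM (log2 fold change -0.23, SE 0.08, adjusted p = 0.049). It no longer passed when any 1 library other than nc replicate 1 was left out, with values of -0.26 without siZNF514 replicate 1, -0.23 without siZNF514 replicate 2, -0.17 without siZNF514 replicate 3, -0.18 without nc replicate 2 and -0.21 without nc replicate 3. SP110 overlaps SP140 on the other strand (62 and 52 counts in nc and siZNF514) and a transcript on its own strand, AC009950.1 (46 and 0 counts). IFI35, a partner of the protein NMI, fell from 22.3, 24.1 and 23 CPM to 13.1, 13.7 and 16.5 CPM (log2 fold change -0.68, SE 0.11, adjusted p = 0.00188). TRIM22, a ubiquitin ligase, was low, with 26, 28 and 15 counts in nc and 5, 12 and 5 in siZNF514 (log2 fold change -1.61, SE 0.41, adjusted p = 0.015), and missed the threshold without siZNF514 replicate 1 (-1.41) or siZNF514 replicate 3 (-1.37). TRIM22 met the filter on low counts only through nc, where it was higher, so its call is partly given by the filter. It overlaps TRIM5 on the other strand, which had 607 counts in nc and 613 in siZNF514.

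SAMD9 and SAMD9L, neighbouring genes on chromosome 7 whose products restrict translation and poxvirus growth, both fell. SAMD9 had 229, 283 and 216 CPM in nc, with replicate 2 the highest, and 137, 134 and 132 CPM in siZNF514 (log2 fold change -0.85, SE 0.10, adjusted p = 0.000418). Per length SAMD9L was far lower (0.136 ± 0.00544 FPKM in nc, against 14.6 ± 2.12 for SAMD9), with 35, 36 and 33 counts and 10, 6 and 15 counts (log2 fold change -1.72, SE 0.29, adjusted p = 0.00257). IFI44 and IFI44L, neighbours on chromosome 1, were likewise unequal per length, at 9.23 ± 0.867 and 0.145 ± 0.0251 FPKM in nc. IFI44 fell from 33.7, 35.5 and 29.5 CPM to 20.2, 19.9 and 20.01 CPM (log2 fold change -0.71, SE 0.09, adjusted p = 0.000582), and IFI44L had 30, 28 and 21 counts in nc and 4, 4 and 7 in siZNF514 (log2 fold change -2.36, SE 0.31, adjusted p = 0.000752). For both pairs the siZNF514 libraries were below every nc library. The log2 ratio of the higher to the lower gene was greater in siZNF514, by 0.93, SE 0.38 for SAMD9 to SAMD9L and by 1.59, SE 0.24 for IFI44 to IFI44L, without overlap. SAMD9L and IFI44L met the filter on low counts only through nc, where they were higher. Their falls, their lack of overlap and these ratios are thus partly given by the filter.

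Of the last members, PLSCR1, a membrane protein that restricts virus entry, was at 55, 62 and 59.2 CPM in nc and 59.95, 64.4 and 59.5 CPM in siZNF514 and did not pass (log2 fold change 0.06, SE 0.07, adjusted p = 0.471). LGALS3BP, a secreted glycoprotein that binds galectins, had 165, 148 and 345 CPM and 142, 127 and 233 CPM (log2 fold change -0.39, SE 0.36, adjusted p = 0.406). Replicate 3 was the highest library of both groups, and the groups overlapped. The value turned to 0.10 without nc replicate 3 and was -0.70 without siZNF514 replicate 3, neither past the threshold. XAF1, which promotes apoptosis, had 4, 2 and 2 counts in nc and 0, 0 and 6 in siZNF514, and EPSTI1 had 3, 6 and 9 and 0, 0 and 4. Neither was tested. Over the groups, XAF1 was at 75.7% of the nc level (exact 95% binomial interval 21.7% to 249%) and EPSTI1 at 22.4% (5.52% to 68.1%), for counting error only. Every count of XAF1 and EPSTI1 in siZNF514 came from replicate 3.

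Within-library ratios of paralogs and neighbours were computed for 16 of 18 listed pairs, since MX2 and CMPK2 were not tested. Of all single tested genes, 30.3% had every siZNF514 level below nc and 30% had every level above. Such a share was not computed for ratios of other gene pairs. In 11 of the 16 pairs the ratio did not overlap between the groups. Among them are SAMD9 to SAMD9L and IFI44 to IFI44L, in which SAMD9L and IFI44L met the filter on low counts only through nc. By exact two-sided permutation tests each of these 11 had p = 0.1, the smallest value possible with 3 against 3, and an adjusted p of 0.1455 over the 16 pairs, so none passed.

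ISRE core matches were common among members whatever their call. Of the 34 members with a window, 25 (73.5%) held at least 1 match, against 4.38% of the 27305 genes in the promoter table and 3.93% of those also tested here. Per window the shares were 61.2% of 49 member windows and 3.57% of all 35116. A match was present in 15 of 20 members that were lower, in 8 of 9 that did not pass and in 1 of 2 that were higher. IFIT3 held 4 distinct matches over its 2 windows. HERC6, IFI16, IFI35, SAMD9L and SP110 were lower with no match in these windows, while UBE2L6 and SP100 also had none. Letters matching the core of the gamma-activated site, TTCNNNGAA, which reads the same on both strands, were in 10 of the 34 members (29.4%), against 9.38% of all genes in the table. Members were picked as interferon targets, so a high share of matches describes the choice of genes, and a match is not evidence of binding in these cells.

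**Figure D4:**
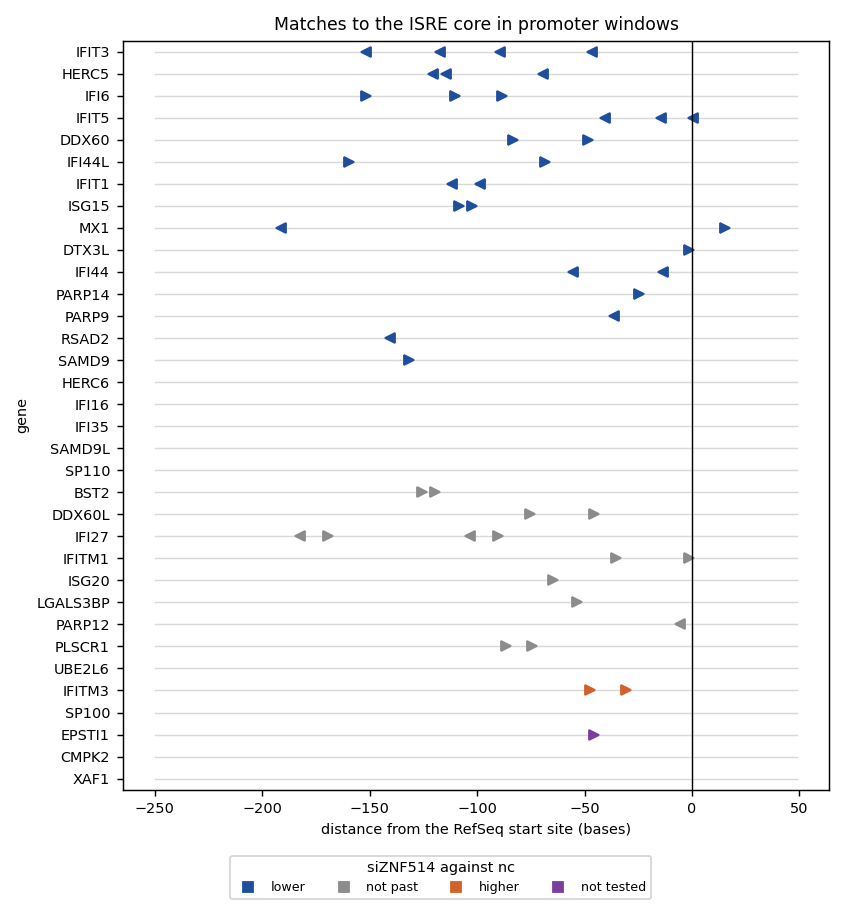
Positions of ISRE core matches in the RefSeq promoter windows of 34 members, as distance in bases from the start site, right-pointing where the GAAA form lies on the gene's strand and left-pointing where the TTTC form does, coloured by the call of the gene. Genes with more than 1 RefSeq start have the matches of every window drawn on 1 line, so 1 site can appear at more than 1 distance, and matches are seen in genes of every call.

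The rest of the pathway was read from a list of 43 genes, of which 32 could be tested. Of these, 14 were lower (43.8%) and 7 higher (21.9%), against 25.1% and 25.5% of all tested genes, and 11 missed the threshold. The median log2 fold change of the 32 genes was -0.20. With scaling by total counts alone, which moved the median of all genes to -0.14, 20 were lower and 5 higher, and over all genes 4775 were lower and 2493 higher in place of 3583 and 3629. The interferon genes themselves were nearly silent, and none could be tested. IFNB1 had 4 counts over the nc libraries and 1 over siZNF514, and IFNL1 had 19 and 11, both chosen after their values were seen. Of the other listed interferons, IFNE had 15 and 8, IFNL3 had 6 and 1, and IFNL2 went the other way, with 1 and 7. IFNA1, IFNK and IFNG had no count. Among 5 tested receptor genes, 2 were higher and 1 lower. IFNGR2 rose (0.73, SE 0.16) and IFNGR1 fell (-0.42, SE 0.07). Of 9 tested kinase, STAT and IRF genes, 3 were lower and 3 higher. In both of these parts the counts are small and near the shares of all tested genes. IRF9, the DNA-binding partner of the STATs, fell from 24.1, 22.2 and 22.9 CPM to 10.04, 12.7 and 10.4 CPM (-1.06, SE 0.11). Sensors and adaptors were lower in 10 of 15 and higher in none, among them OAS3 (-0.96, SE 0.04), which makes the activator of RNase L, and the kinase EIF2AK2 (-0.94, SE 0.04). Of 3 negative regulators, SOCS3 (0.68, SE 0.08) and PIAS1 (0.23, SE 0.06) rose.

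**Figure D5:**
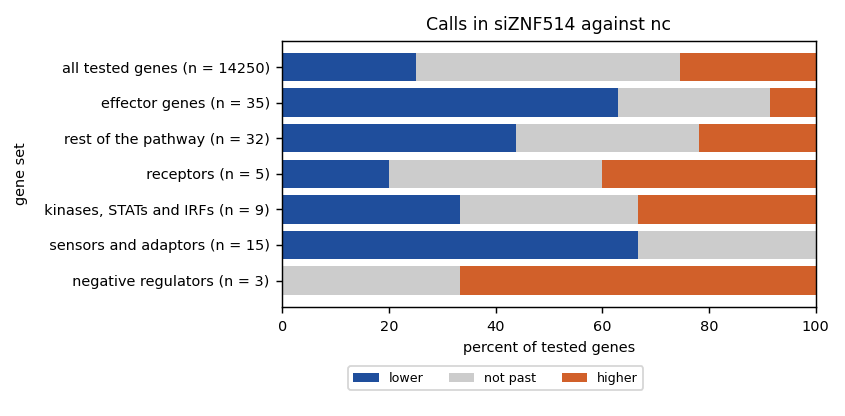
Percent of tested genes that were lower, not past the threshold and higher in siZNF514 against nc, for all tested genes, the effector genes, the rest of the pathway and its parts, with the number tested. The blue part is 62.9% for the effector genes and 25.1% for all tested genes.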

How the data were processed

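RNA-seq counts and FPKM of 6 libraries were used, with columns matched to libraries by title. The deposited count columns hold whole numbers per gene with no normalization visible, and the FPKM columns were deposited by the authors as values per length and per library total. HISAT2 2.0.4, StringTie 1.3.3b, edgeR and hg38 are named in the submitters' processing notes but not what each did. No source used here gives the annotation release or the strand setting. The members and lists were chosen with earlier results of these data known.

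Genes were filtered by filterByExpr in edgeR 4.0.16 (R 4.3.3; minimum count 10, minimum total 15), which left 14250 genes, holding 99.8% or more of the counts in each library. Scaling was by TMM, and the test of siZNF514 against nc was the quasi-likelihood F test with Benjamini-Hochberg adjustment at 0.05. The SE is the log2 fold change divided by the square root of F. CPM are counts over the tested library size times its TMM factor. Ratios of 2 genes used log2 of counts plus 0.5. All 39 members were named, and of the rest of the pathway the 2 genes with the smallest p in each part, of which 1 is not reported here. Alternatives were a replicate block, each library left out, DESeq2 1.42.0 size factors and Wald test, total counts, other filters (any count; a mean count of 50), and limma 3.58.1 on log2(FPKM + 0.1, 1 or 0.01). Leaving out replicate 3 of both groups was added after the data were seen. Replicates differed by more than sampling noise.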

Additional observations from a re-analysis of the deposited data

How the results depend on the processing

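The number of members lower stayed between 19 and 25 over the 16 alternatives, and the number higher was 3 or, with total counts alone and on FPKM, 2. The 19 were of 29 tested members. The 25 came with total counts alone, where 4775 of all 14250 tested genes were lower in place of 3583. With 1 library left out in turn, members lower ran from 21 to 24, members higher stayed at 3, their median log2 fold change ran from -0.75 to -0.60, and ZNF514 from -2.003 to -1.770. Over all genes, lower calls then ran from 3104 to 3225 and higher calls from 3197 to 3338, of 14437 to 14696 tested. Rest-of-pathway genes then ran from 13 to 14 lower and 6 to 9 higher. The members' median moved by more than the spread between replicates with total counts alone (-0.79; the median of all genes moved to -0.14), on log2(FPKM + 0.1) (-0.79), log2(FPKM + 1) (-0.43, a scale that understates changes of low genes) and log2(FPKM + 0.01) (-0.82), and without replicate 3 of both groups (-0.77, with 23 members lower). The rest of the pathway had 4 higher on log2(FPKM + 1) in place of 7; the cause was not tested. With a mean count of at least 50, 29 members could be tested and 19 were lower, TRIM22, SAMD9L and IFI44L being below that count. HERC5 missed the threshold (-0.54) and IFITM1 passed (-1.64) without replicate 3 of both groups.

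Same-numbered libraries of the groups showed no common deviation over all genes (correlations of 0.00121, 0.037 and -0.0392). Such values cannot show that no pairing exists, and LGALS3BP was highest in replicate 3 of both groups. With a replicate block, 22 members were lower and 3 higher, as before, with a median of -0.68. SP110 no longer passed and LGALS3BP did (-0.33). The filter and depth leave MX2, CMPK2, XAF1 and EPSTI1 untested, and members under about 3 CPM have wide errors.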
